A study of Homo sapiens with 6 samples.

Results

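The genes described are 10 components of the Notch pathway, namely the receptors NOTCH1, NOTCH2 and NOTCH3, the ligands JAG1, JAG2 and DLL1, the glycosyltransferase LFNG, and the target genes HES1, HEY1 and NRARP. Members were found by exact gene symbol in the gene column of the processed table, and each of the 10 symbols occurred in 1 row that held no other symbol. The table lists 41656 loci, of which 27678 carry a gene symbol. MCF10A is an established, non-tumorigenic human breast epithelial line. The cultures received, at 30 nM, either a non-targeting siRNA (siNT) or siRNAs against PAX9 (siPAX9), and RNA was collected after 72 hours. Both groups were grown in the same medium, with horse serum, epidermal growth factor, hydrocortisone, cholera toxin and insulin, and went through the same lipid transfection. There were 3 samples in each group. The labels do not say whether the 3 samples came from separate cultures or passages, and the knockdown was transient in a single cell line.

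The table gives 1 FPKM per locus and group, pooled by the authors over the 3 samples. FPKM scales the fragments of a locus to transcript length and to the size of the library, so levels can be set side by side between genes. No value per sample and no depth is in the table. The authors' own test columns were not used. For this reason no error, interval or test is given with any value below, and a difference between siNT and siPAX9 is a difference between these pooled values only. Changes are given as log2 of the siPAX9 FPKM over the siNT FPKM, so that 1 is a doubling. In bulk RNA, fewer cells that express a gene and less RNA per cell cannot be told apart.

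Notch receptors are single-pass membrane proteins that are activated by ligands on a neighbouring cell. Ligand binding exposes the receptor to cleavage by ADAM proteases and then by gamma-secretase, and the released intracellular domain enters the nucleus, where it joins RBPJ and a Mastermind protein on DNA and switches on genes of the HES and HEY families. Fringe enzymes such as LFNG add sugars to the receptor and shift its response between Delta-like and Jagged ligands. In stratified and mammary epithelia, the pathway is known for its part in the choice between basal and differentiated cell states.

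The level of PAX9, the gene that the siRNAs target, was 2.80 FPKM in siNT and 0.325 FPKM in siPAX9, a log2 change of -3.10. Its row on chromosome 14 (37126773 to 37642998, hg19) was in the same direction as the labels. Of the markers of the cell line, KRT5 (1558 FPKM in siNT, 1807 in siPAX9) and KRT17 (1718 and 2088) were abundant in both groups, and all 7 epithelial markers were above 16 FPKM in both groups. Of the 7, EPCAM was at least 2-fold lower in siPAX9 (34.3 FPKM in siNT, 16.7 in siPAX9) and CDH1 at least 2-fold higher (45.3 and 124), and the other 5 were within 2-fold. Of the leukocyte markers, CD3E was listed at 0 in both groups, PTPRC was below 0.1, and CD68, a lysosomal protein gene that is not limited to leukocytes, had 3.38 and 3.77 FPKM. Of the 4 fibroblast markers, DCN and COL1A1 had higher FPKM in siPAX9 (5.85 against 37.9, and 0.454 against 4.13), and LUM and PDGFRA were also higher but below 0.1 in both groups (0.0212 against 0.0782, and 0.00561 against 0.0117). The fibroblast list summed to 6.33 FPKM in siNT and 42.1 in siPAX9. The endothelial list summed to 2.63 and 0.533, nearly all of it PECAM1, with CDH5, VWF and DLL4 below 0.1. The part of these genes in the results for the Notch genes was not tested.

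The promoters of HES1, HES4 and LFNG are shown as examples that hold the letters that RBPJ, the DNA-binding partner of Notch, is known to favour. Other genes named below hold these letters too. Each window runs from 250 bases before to 50 bases after a gene start in RefSeq (GRCh38.p14, a later build than the hg19 of the processed table), written 5′ to 3′ on the strand of the gene. Capitals mark TGGGAA or its reverse complement TTCCCA. A gene can have more than 1 start, and LFNG has a pair of windows.
HES1 (chr3:194135898-194136197, plus strand): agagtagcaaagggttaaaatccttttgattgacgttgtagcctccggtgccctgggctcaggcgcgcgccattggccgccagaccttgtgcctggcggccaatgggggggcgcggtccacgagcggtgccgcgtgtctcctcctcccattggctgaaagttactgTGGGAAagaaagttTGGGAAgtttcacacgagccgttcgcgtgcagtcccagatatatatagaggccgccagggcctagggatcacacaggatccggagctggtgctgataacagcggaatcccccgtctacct
HES4 (chr1:1000048-1000347, minus strand): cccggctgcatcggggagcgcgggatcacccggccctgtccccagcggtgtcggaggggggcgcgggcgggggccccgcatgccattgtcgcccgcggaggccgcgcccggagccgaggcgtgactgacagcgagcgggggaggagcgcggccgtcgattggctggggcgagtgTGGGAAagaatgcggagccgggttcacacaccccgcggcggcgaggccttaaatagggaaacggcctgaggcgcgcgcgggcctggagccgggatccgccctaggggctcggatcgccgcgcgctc
LFNG, upstream start (chr7:2512279-2512578, plus strand): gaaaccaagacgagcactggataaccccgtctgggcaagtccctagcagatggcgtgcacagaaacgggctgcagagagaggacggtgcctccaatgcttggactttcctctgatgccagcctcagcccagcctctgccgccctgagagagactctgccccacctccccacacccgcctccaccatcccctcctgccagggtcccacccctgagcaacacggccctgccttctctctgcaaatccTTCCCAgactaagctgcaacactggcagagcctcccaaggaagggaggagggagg
LFNG, downstream start (chr7:2517613-2517912, plus strand): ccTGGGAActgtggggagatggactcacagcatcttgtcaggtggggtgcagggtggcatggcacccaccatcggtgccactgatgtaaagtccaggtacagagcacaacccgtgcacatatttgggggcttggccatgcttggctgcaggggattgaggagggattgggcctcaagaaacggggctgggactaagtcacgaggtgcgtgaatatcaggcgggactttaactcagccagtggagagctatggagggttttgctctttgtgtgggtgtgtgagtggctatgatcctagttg

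In HES1 the copies of TGGGAA began 84 and 70 bases before the start site, and the former was also a match to the longer GTGGGAA. In HES4 the match began 76 bases before the start. At the upstream start of LFNG, the match, on the opposite strand, ran from 5 bases before the start to the start base itself. At the downstream start of LFNG, the match began 248 bases before the start, and neither was a match to GTGGGAA. Of the 10 members, 8 were found in the promoter table (DLL1 and HEY1 were not), with 9 windows. Exact TGGGAA on either strand was in 3 of these windows, against 24.0% of all 35116 windows of the same length, and every GTGGGAA match also counts as a TGGGAA match. NOTCH1, NOTCH2, NOTCH3, JAG1, JAG2 and NRARP had no match, which says only that these letters are not in the 300 bases searched. Across the HES and HEY families, 5 of the 8 genes found (HES1, HES4, HES5, HEY2 and HEYL) had GTGGGAA in the window, against 6.25% of all windows.

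The receptors had log2 changes of 1.09 (NOTCH1), 0.43 (NOTCH2) and 3.77 (NOTCH3), and DLL1 was the member with the lowest siPAX9 to siNT ratio. At least 2-fold higher in siPAX9 were 3 of the 10 members (NOTCH1, NOTCH3 and LFNG), and at least 2-fold lower were 2 (DLL1 and NRARP). The other 5 (NOTCH2, JAG1, JAG2, HES1 and HEY1) differed by less than 2-fold. As background, 7.26% of the 12831 named loci that were above 0 in both groups and reached 1 FPKM in at least 1 were at least 2-fold higher in siPAX9 and 6.89% at least 2-fold lower. HEY1 did not reach that FPKM limit, and NOTCH3, LFNG and DLL1 reached it in only 1 of the groups. With no limit except FPKM above 0 in both groups, which all 10 members met, 14.0% of 17834 named loci were at least 2-fold higher and 8.20% at least 2-fold lower. The median log2 change of the 10 members was 0.11, beside 0.011 over the 17834 loci, and values ranged from -4.36 to 3.77. Large ratios were more common at low levels. Among named loci with a mean FPKM from 1 to 5, where DLL1, NOTCH3, LFNG and NRARP lie, 13.0% were at least 2-fold higher and 9.73% at least 2-fold lower, while at a mean of 5 or more, where NOTCH1 lies, the shares were 3.77% and 5.36%. All 4 members past 2-fold other than NOTCH1 had an FPKM under 5 in both groups. With a 4-fold limit, NOTCH3 and LFNG were on the higher side (2.64% of the 12831 loci) and DLL1 on the lower side (1.29%). With a 1.5-fold limit, JAG1 joined DLL1 and NRARP on the lower side (16.8%), and the higher side still held NOTCH1, NOTCH3 and LFNG (14.3%). With 1 added to each FPKM, the same 3 genes were at least 2-fold higher (4.38% of the loci) and DLL1 alone was at least 2-fold lower (4.47%).

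**Figure D1:**
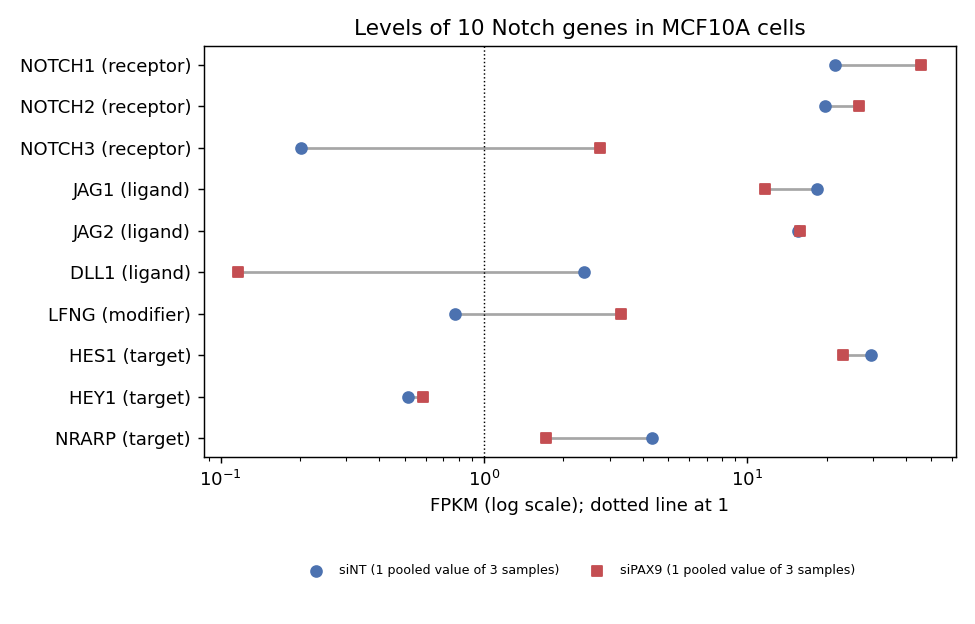
FPKM (log scale) of the 10 Notch genes in siNT (circles) and siPAX9 (squares), each symbol the 1 value pooled over 3 samples, so no error bars can be drawn. The longest lines belong to DLL1, which was lower in siPAX9, and NOTCH3, which was higher, and both cross an FPKM of 1.

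NOTCH1, the receptor best known for promoting differentiation in squamous epithelium, had 21.5 FPKM in siNT and 45.8 in siPAX9. Its log2 change was 1.09, a 2.13-fold difference, and 6.50% of the named loci past the FPKM limit were at least as far higher. In siNT it was the second most abundant member after HES1, and in siPAX9 it was the first. The NOTCH1 locus spans chromosome 9 from 139388878 to 139440487 (hg19), and its canonical transcript has 34 exons.

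NOTCH2, a close relative with the same domain order, had 19.7 FPKM in siNT and 26.5 in siPAX9, a log2 change of 0.43 that stayed within 2-fold. Of the named loci past the FPKM limit, 19.1% were at least as far higher. The level of NOTCH2 is uncertain, because the NOTCH2NL copies on chromosome 1 share long stretches of sequence with it. The row that holds NOTCH2NL together with 6 other symbols had 49.4 FPKM in siNT and 71.0 in siPAX9, a log2 change of 0.52 in the same direction.

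NOTCH3, a receptor known from vascular smooth muscle and from luminal mammary cells, had 0.203 FPKM in siNT and 2.76 in siPAX9. It was the least abundant of the 10 members in siNT and the seventh in siPAX9. The log2 change was 3.77, the largest upward value among the members, and 0.888% of the named loci past the limit were at least as far higher. With 1 added to each FPKM, which damps ratios at low levels, the log2 change was 1.64. Its locus lies on chromosome 19 (15270444 to 15311792).

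Added together, the 3 receptors had 41.4 FPKM in siNT and 75.0 in siPAX9. NOTCH1 made up 52.0% of the sum in siNT and 61.0% in siPAX9, and NOTCH2 made up 47.5% and 35.3%. The ratio of NOTCH1 to NOTCH2 was 1.09 in siNT and 1.73 in siPAX9. NOTCH3 stayed a small part of the sum in both groups, at 0.490% and 3.68%, even though its own ratio was the widest of the receptors.

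**Figure D2:**
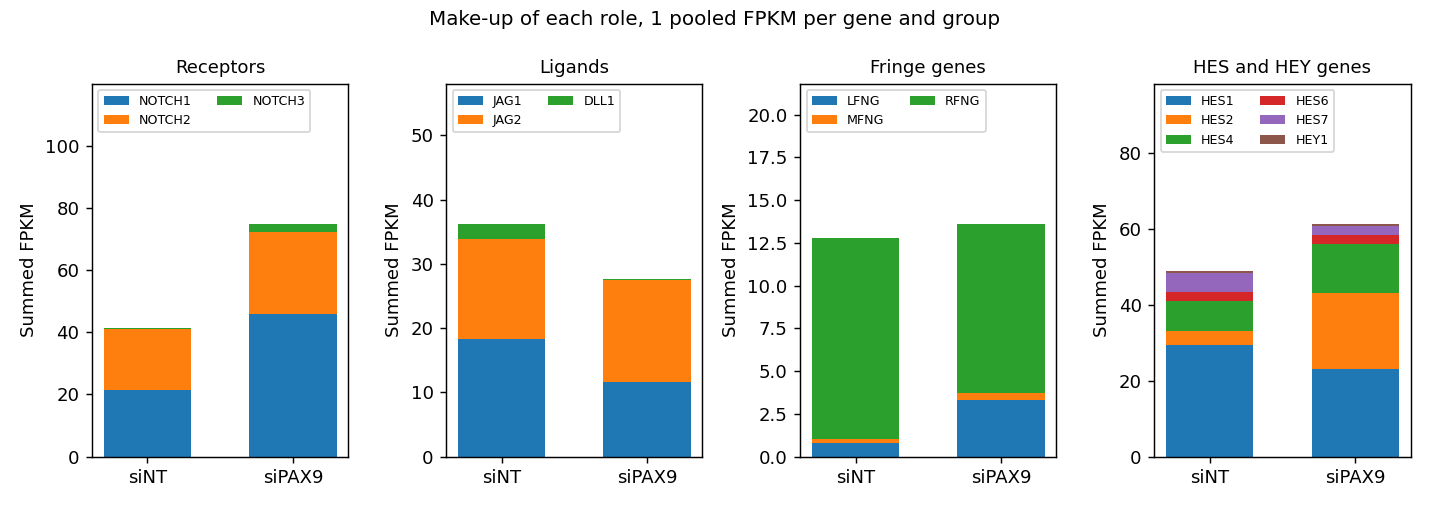
Stacked bars of FPKM (linear scale from 0) for the receptors, ligands, fringe genes, and HES and HEY genes in siNT and siPAX9, with 1 pooled value per gene and group and no error bars. The receptor sum was 41.4 in siNT and 75.0 in siPAX9, the ligand sum was 36.3 and 27.6, and HES2 was a larger part of the HES and HEY sum in siPAX9.

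The ligands had no member past 2-fold higher. JAG1, a Jagged ligand widely expressed in epithelia, had 18.4 FPKM in siNT and 11.7 in siPAX9, a log2 change of -0.65. JAG2, its close relative, had 15.5 and 15.8 FPKM, a log2 change of 0.026. JAG1 was thus the more abundant of the pair in siNT and JAG2 in siPAX9, with JAG1 to JAG2 ratios of 1.18 and 0.739.

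DLL1, a Delta-like ligand, had 2.39 FPKM in siNT and 0.116 in siPAX9. Its FPKM in siNT was 20.6 times that in siPAX9, a log2 change of -4.36. Of the named loci past the limit, 0.109% were at least as far lower. In siPAX9 it was the least abundant of the 10 members, and only 0.0779% of those loci had a lower FPKM in siPAX9, so its ratio rests on one of the lowest values among these loci. With 1 added to each FPKM, the log2 change was -1.60. The locus lies on chromosome 6 (170591294 to 170599697), with no other row of the table overlapping it.

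The 3 ligands together had 36.3 FPKM in siNT and 27.6 in siPAX9. The ratio of the ligand sum to the receptor sum was 0.877 in siNT and 0.368 in siPAX9. DLL1 made up 6.58% of the ligand sum in siNT and 0.421% in siPAX9, so most of the ligand FPKM was JAG1 and JAG2 in both groups.

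LFNG had 0.776 FPKM in siNT and 3.32 in siPAX9, a 4.27-fold difference and a log2 change of 2.10. Of the named loci past the limit, 2.45% were at least as far higher. With 1 added to each FPKM the log2 change was 1.28. Its relatives, which add the same sugar, were RFNG, with 11.7 and 9.89 FPKM, and MFNG, with 0.280 and 0.422. The sum of the 3 fringe genes was 12.8 FPKM in siNT and 13.6 in siPAX9, and LFNG was 6.08% of it in siNT and 24.3% in siPAX9. RFNG was the most abundant fringe gene in both groups.

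Of the 3 target genes, HES1 and NRARP had lower FPKM in siPAX9, and HEY1 was under 1 FPKM in both groups. HES1, a transcriptional repressor and the most widely used readout of the pathway, had 29.5 FPKM in siNT and 23.0 in siPAX9, a log2 change of -0.36. HEY1, a related repressor, had 0.513 and 0.587 FPKM, a log2 change of 0.20 at a level under 1 in both groups. NRARP, an ankyrin-repeat protein that is induced by Notch and feeds back on it, had 4.35 FPKM in siNT and 1.72 in siPAX9. Its log2 change was -1.34, and 3.77% of the named loci past the limit were at least as far lower. With 1 added to each FPKM, the log2 change of NRARP was -0.98, short of 2-fold. HES1 and HEY1 were within 2-fold, and NRARP was the only 1 of the 3 targets past it.

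**Figure D3:**
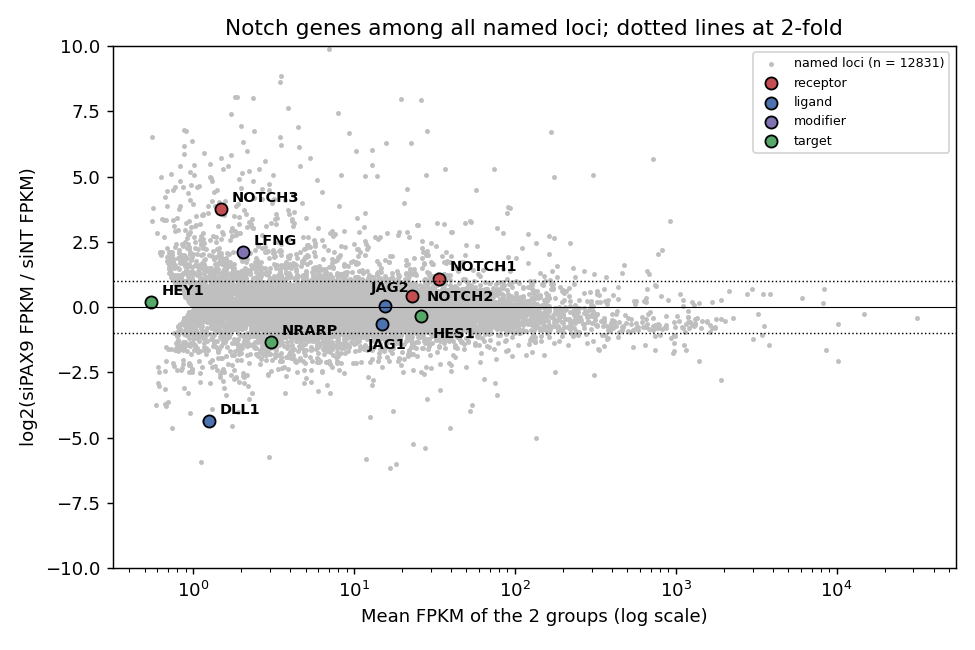
Log2 of siPAX9 over siNT FPKM against the mean FPKM of the groups (log scale) for the 12831 named loci past the FPKM limit (grey) and the 10 members coloured by role, HEY1 included although it is under the limit. DLL1 lies at the lower edge of the cloud, NOTCH3 and LFNG lie above the upper dotted line at low FPKM, NOTCH1 lies just above that line, and 4 loci fall outside the axis range of 10.

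A wider list of 61 pathway genes was examined by role, and all 61 had a row. Of these, 3 (HES5, HEY2 and HEYL) were listed at 0 in both groups and DLK1 was listed at 0 in siNT. The FPKM limit was reached by 49, of which 3 (6.12%) were at least 2-fold higher in siPAX9 and 0 at least 2-fold lower, beside 7.26% and 6.89% of the named loci, so the share on the higher side was near the background. The median log2 change of the 49 was 0.0064, beside -0.063 over the named loci, with 25 above 0 and 24 below. The 3 genes were HES2, CDKN1A and APH1B. Under the limit, NOTCH4, DLL3 and DLL4 (named after their values were seen) had lower FPKM in siPAX9, from 0.667 to 0.184, from 0.812 to 0.287 and from 0.0487 to 0.0169, and the NOTCH4 row, which also holds GPSM3, is 1 of 7, of which the other 6 were listed at 0 in both groups. Of the other ligand-like genes, DLK2 had 10.6 FPKM in siNT and 8.13 in siPAX9.

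Among the remaining HES genes, HES2, a repressor of the same family, had 3.50 FPKM in siNT and 20.1 in siPAX9, a log2 change of 2.52. The ratio of HES1 to HES2 was 8.43 in siNT and 1.14 in siPAX9. HES4 had 7.91 and 12.9 FPKM, a log2 change of 0.70, and HES7 had 4.89 and 2.47, a log2 change of -0.99 just short of 2-fold. The HES2 promoter window had no TGGGAA, whereas those of HES1 and HES4, printed above, did. HES1 was 60.4% of the summed FPKM of the HES and HEY genes in siNT and 37.4% in siPAX9, and HES2 was 7.16% and 32.7%. The whole sum was 48.8 FPKM in siNT and 61.5 in siPAX9.

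Of the genes that cut the receptor, APH1B was past 2-fold, and it reached 1 FPKM in siPAX9 only. APH1B, a subunit of gamma-secretase, had 0.787 FPKM in siNT and 2.61 in siPAX9, a log2 change of 1.73. Its far more abundant counterpart APH1A had 74.3 and 54.1 FPKM, a log2 change of -0.46. NCSTN, another gamma-secretase subunit, had 36.2 and 40.3 FPKM, and ADAM10, the protease that makes the first cut after ligand binding, had 31.7 and 36.4. Of the 9 protease genes, 8 were within 2-fold, as were 85.8% of all named loci past the limit, and the counts within 2-fold for the roles that follow are to be read beside that share.

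All 9 genes of the nuclear complex were within 2-fold, with log2 changes from -0.28 to 0.65. RBPJ had 17.8 FPKM in siNT and 16.2 in siPAX9, a log2 change of -0.14. The coactivator MAML1 had 25.7 and 23.4 FPKM, the acetyltransferase KAT2A had 31.9 and 29.0, and SNW1 had 23.4 and 19.3. The 10 corepressor genes past the limit were also within 2-fold, from -0.92 for TLE3 to 0.47 for TLE4, and CTBP1 was the most abundant of them with 60.2 and 55.4 FPKM, followed by the histone deacetylase HDAC1 with 37.9 and 35.1. Of the ubiquitin ligases that activate ligands, MIB1 (15.9 and 16.7 FPKM) and MIB2 (9.88 and 9.92) had nearly equal values. NEURL1B, of the same role, was lower in siPAX9, with 3.40 and 2.04 FPKM and a log2 change of -0.73. POFUT1, the enzyme that puts the first fucose on Notch, had 19.9 and 16.5 FPKM, and POGLUT1, which adds glucose to it, had 14.5 and 10.6.

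Genes of receptor turnover were within 2-fold as well. NUMB, an adaptor that opposes Notch, had 24.6 and 22.2 FPKM, and its relative NUMBL had 6.85 and 3.66, a log2 change of -0.90. DTX3L, of the Deltex family of ubiquitin ligases, had 18.4 and 22.3 FPKM. FBXW7, which marks the Notch intracellular domain for degradation, had 13.3 FPKM in siNT and 25.2 in siPAX9, a log2 change of 0.92. DTX4, of the same family as DTX3L, had 8.22 and 15.5, a log2 change of 0.91. DTX2 had a pair of rows with the same coordinates (chromosome 7, 76090972 to 76135312) and log2 changes of -0.29 and 0.49, so its direction depends on the row, and the one with the higher mean, at 0.49, was counted.

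**Figure D4:**
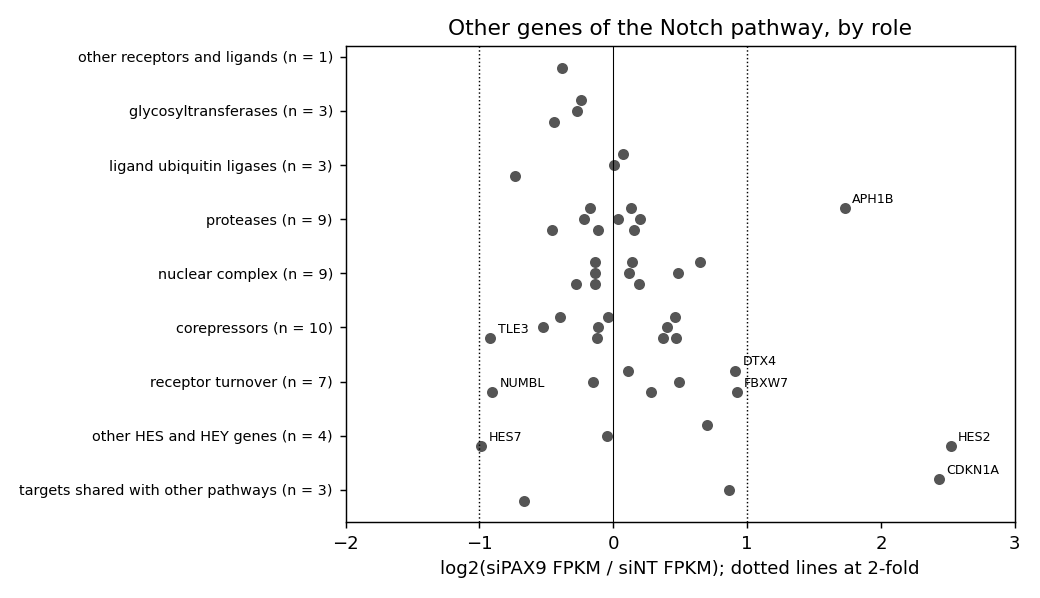
Log2 of siPAX9 over siNT FPKM for the 49 genes of the wider pathway list past the FPKM limit, 1 dot per gene, in rows by role (vertical offsets within a row only separate dots). HES2, CDKN1A and APH1B lie beyond the dotted line at 2-fold higher, and none lies beyond the line at 2-fold lower.

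Genes that Notch shares with other pathways went in both directions. CDKN1A, the cyclin-dependent kinase inhibitor p21, had 69.0 FPKM in siNT and 373 in siPAX9, a log2 change of 2.44. CCND1, which encodes cyclin D1, had 28.1 and 51.1 FPKM, a log2 change of 0.86. MYC had 394 and 248, a log2 change of -0.67.

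A short list of squamous genes, chosen with earlier results of these data known, was looked at as context. All 7 suprabasal genes had higher FPKM in siPAX9, with KRT4 listed at 0 in siNT and the other 6 at log2 changes from 2.34 (TGM1) to 8.0 (KRT13), and all 6 basal genes were within 2-fold, from -0.49 for TP63 to 0.70 for KRT15. KRT1, KRT13 and IVL were under 0.1 FPKM in siNT, so their ratios rest on values near 0. As background, 14.0% of the named loci above 0 in both groups were at least 2-fold higher.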

How the data were processed

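RNA from 3 siNT and 3 siPAX9 samples of MCF10A cells was sequenced by the authors as single-end reads of poly(A)+ libraries, aligned to UCSC hg19 with Bowtie 2 and quantified with Cufflinks in Partek Flow. The deposited FPKM values are 1 per locus and group, pooled by the authors over the samples. The normalization between libraries, the gene annotation and the use of strand are not given in the sources used here. The columns with the authors' own fold changes, test statistics, p-values and q-values were not used. Locus starts are printed 1-based.

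For a symbol with several rows, the row with the highest mean FPKM was kept. The log2 ratio was computed with no pseudocount. Named loci carry a gene symbol, and those past the FPKM limit were above 0 in both groups and reached 1 in at least 1 of them, so loci listed at 0 in a group are in no share. Unless another limit is given, shares are over the loci past that limit. A 2-fold limit in either direction was used, the fold part of the study's own limits, and no test was run because there is 1 value per group. The paper gives a range of reads per library, but the table holds no depth and no counts, so the number of reads behind an FPKM is unknown. The ratio and look-up steps were tested on simulated data. Genes of the wider list were named if past 2-fold and the FPKM limit, or otherwise if among the 3 most abundant of their role; RBPJ, SPEN, MFNG, TLE3, TLE4, NUMBL, DTX4 and DTX2 were named after their values were seen. The members and lists were chosen with earlier results of these data known. Another leukocyte marker is not reported here.

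Exons were taken from GENCODE release 44 on GRCh37, whose chromosome coordinates are those of hg19, and all 10 member loci overlapped their gene there. NOTCH1, JAG1 and NRARP each overlap 1 annotated gene on the opposite strand, whose reads could not be told apart without strand. Promoter windows came from RefSeq (GRCh38.p14), and protein sequences were not used here. Alternatives were another fold limit, 1 added to each FPKM, centring, other FPKM limits, and other choices of row. The computation used Python 3.11.15, numpy 2.4.6 and pandas 2.3.3, and plots were drawn with matplotlib 3.10.9.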

Additional observations from a re-analysis of the deposited data

How the results depend on the processing

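No paired analysis was possible because the table holds 1 pooled FPKM per group, and no sample could be left out in turn. No alternative turned a direction among the 10 members. Under centring and under a pseudocount of 1, 19 of their 20 log2 values kept their side of the 2-fold limit, and NRARP with 1 added (-0.98) did not. The other choices of row could not change a member, since each has 1 row with its symbol alone, and they were not run for the wider list. The count of members at least 2-fold lower was 2 and became 1 with 1 added to each FPKM (DLL1), 1 at a 4-fold limit (DLL1, a setting chosen after seeing the data) and 0 when at least 1 group had to reach 5 FPKM. The count at least 2-fold higher was 3 and became 1 (NOTCH1) with that last limit, which leaves 5 members and has 6.03% of the named loci lower and 4.65% higher. The drops at 5 FPKM and with 1 added follow from leaving out or damping genes of low FPKM, and NRARP missed the 4-fold limit because its ratio was 2.53. The median of the members moved by less than 0.1 on the log2 scale under every alternative run for it. In the wider list, 5 genes were lower and 8 higher at a 1.5-fold limit, against 0 and 3 at 2-fold, beside 16.8% and 14.3% of the named loci at 1.5-fold. With FPKM above 0 in both groups only, 3 of 57 were lower (NOTCH4, DLL3 and DLL4) and 3 higher, beside 8.20% and 14.0% of the named loci. Centring subtracted the median of the named loci, -0.063, from every log2 value. The reads behind each FPKM are unknown, so no floor could be set for values under 1 FPKM.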

Other observations

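Rows named for a microRNA share the loci of 5 members. MIR4673 in NOTCH1, MIR6795 in NOTCH3, MIR6870 in JAG1 and MIR4648 in LFNG were listed at 0 in both groups, and MIR6765 in JAG2 was listed at 29.1 FPKM in siNT and at 0 in siPAX9. All 5 rows carried the authors' mark for loci not tested, and the number of reads behind the 29.1 FPKM is unknown. The libraries were made from poly(A)+ RNA, so these rows do not measure mature microRNAs.

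Of the 5 HES and HEY genes with GTGGGAA in the promoter window, HES5, HEY2 and HEYL were listed at 0 in both groups, HES1 had a log2 change of -0.36 and HES4 one of 0.70. In the wider list, 7 of the 74 windows held GTGGGAA, beside 6.25% of all windows. The 7 windows belong to 7 of the 50 genes found, a share with no background per gene, since some genes have several windows. Besides HES4, HES5, HEY2 and HEYL, the 7 genes were CTBP2, RBPJ and SPEN. CTBP2, a corepressor, had a log2 change of -0.52 (32.9 FPKM in siNT, 22.9 in siPAX9). RBPJ had 2 matches to GTGGGAA in 1 of its windows and a log2 change of -0.14, and SPEN, the corepressor that RBPJ recruits, had 1 match and a log2 change of 0.46 (12.4 FPKM in siNT, 17.0 in siPAX9).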
